A study of Homo sapiens with 12 samples.

Results

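CHD4 and 9 further genes of the NuRD complex (CHD3, HDAC1, HDAC2, MTA1, MTA2, MBD2, MBD3, RBBP4 and CDK2AP1) were followed at the transcript level in 12 expression arrays of human acute myeloid leukaemia cells. A probe set, the group of short probes that reports 1 transcript region, was taken as a member when the platform annotation paired it with exactly 1 of these 10 genes. That gave 20 probe sets of the 22215 tested, and 10 genes of the 11963 that had a single-gene probe set. No probe set that was shared by several genes included a member. The groups were U937 cells with CHD4 shRNA, U937 cells with scrambled shRNA, MV4-11 cells with CHD4 shRNA and MV4-11 cells with scrambled shRNA, with 3 arrays each. U937 has monocyte features, and MV4-11 has features of monocytes and granulocytes, an MLL fusion and an activated FLT3. All 4 groups carried a lentiviral pRRL.H1.shRNA vector that also expresses GFP, so a vector without a hairpin and untransduced cells were not among the groups. The series description calls the triplicates biological and spells the target CHD4, while the sample labels spell it CDH4. The platform annotation named 0 probe sets for CDH4, so only CHD4 could be checked. The sources used here do not give the number of different hairpins, the time after transduction or any sorting for GFP.

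NuRD couples nucleosome remodelling to histone deacetylation. CHD4 or its paralogue CHD3 supplies the ATPase that slides nucleosomes, HDAC1 and HDAC2 remove acetyl groups from histone tails, MTA proteins form the scaffold that holds the deacetylases, and RBBP4 binds histones. MBD2 and MBD3 are alternative subunits that link the deacetylase part of the complex to the remodeller part. MBD2 binds methylated CpG sites, whereas mammalian MBD3 has little preference for methylated DNA. CDK2AP1, also described as an inhibitor of CDK2, is a small subunit of the same complex. In blood cells NuRD acts with transcription factors such as IKZF1 and BCL11A.

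Values are log2 RMA values, 1 unit of which is a 2-fold difference. RMA is a method that corrects background, normalizes arrays by quantiles and combines the probes of a probe set. A change is the mean of the CHD4 shRNA arrays minus the mean of the scrambled arrays, with its standard error (SE) from limma, and "past the threshold" means an adjusted p under 0.05 over all 22215 probe sets. Array medians lay between 6.96 and 7.01, and arrays of the same group correlated at 0.987 to 0.997. Markers of blood cells were bright in both lines: LYZ lay between 13.16 and 14.01, and PTPRC between 10.54 and 11.50. FLT3 lay between 9.33 and 10.73 in MV4-11 and between 6.44 and 6.84 in U937. MEIS1, listed with FLT3 as a marker of the MLL fusion line, was bright in both lines. It lay between 11.29 and 11.96 in MV4-11 and between 10.79 and 11.64 in U937. MEIS1 was higher with CHD4 shRNA in U937 by 0.69 (SE 0.14, limma adjusted p = 0.0163). In MV4-11 its difference was 0.22 (SE 0.14, limma adjusted p = 0.402). MPO (4.97 to 6.13) and SPI1 (6.26 to 6.68) were dim in both lines, and CD33, HOXA9 and HOXA10 had no single-gene probe set. EPCAM, a marker of epithelial cells, and CDH5, a marker of endothelial cells, stayed at or below 4.66 on every array, while PECAM1, which myeloid cells also carry, lay between 9.74 and 10.59. Markers of T, B and erythroid cells lay between 4.13 and 7.32, those of epithelial cells between 3.85 and 7.02 and those of fibroblasts between 4.26 and 8.16. Of these 18 markers of other cell types only CD2, of the T cell list, moved with the shRNA: it lay between 6.38 and 7.05 in U937 and between 6.68 and 7.32 in MV4-11 with CHD4 shRNA, against at most 5.41 and 5.33 with scrambled shRNA (limma adjusted p = 0.000735 and 0.000148). The defining T cell markers CD3E and CD3D had differences between -0.15 and 0.14, neither past the threshold. The summed linear signal of these 3 T cell markers was 230.2 to 280.5 with CHD4 shRNA, against 170 to 204.8 with scrambled shRNA in U937, and 244.8 to 300.5 against 168.6 to 178.2 in MV4-11.

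Of the 10 genes, CHD4 fell in both lines on all 3 of its probe sets, CDK2AP1 rose in MV4-11, and the other 8 genes had no probe set past the threshold in either line. In MV4-11, where same-numbered arrays deviated together, a fit with replicate number as a block also placed MBD2 202484_s_at (limma adjusted p = 0.027) and HDAC1 (0.0498) past it as higher. CDK2AP1 was 2.18-fold higher with CHD4 shRNA in MV4-11 and 1.59-fold higher in U937, the U937 value not being past the threshold. Averaged over both lines, CDK2AP1 and 1 of the 4 MBD2 probe sets were past the threshold as higher. Sequences before a listed transcript start of CHD4 and of these 2 partners are shown here because these genes had the calls. Their CpG sites are marked because MBD2 binds such sites when methylated. Each sequence is the 250 bases before the listed start, from RefSeq (GRCh38.p14). All are on the minus strand and written 5′ to 3′, with each CpG in capitals. The windows are chr12:6606452-6606701 for CHD4, chr12:123271252-123271501 for the first of 3 listed starts of CDK2AP1, and chr18:54224670-54224919 for MBD2. The CHD4 and CDK2AP1 windows lie inside the span of their genes, downstream of its 5′ end. The MBD2 window ends at the base before its gene. Whether any of these windows acts as a promoter in these cells was not tested.
CHD4: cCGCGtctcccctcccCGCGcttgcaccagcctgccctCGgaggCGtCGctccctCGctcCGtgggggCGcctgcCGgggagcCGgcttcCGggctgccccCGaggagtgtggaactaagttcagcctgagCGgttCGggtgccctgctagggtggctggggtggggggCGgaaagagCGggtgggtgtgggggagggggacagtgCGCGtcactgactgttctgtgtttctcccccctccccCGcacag
CDK2AP1: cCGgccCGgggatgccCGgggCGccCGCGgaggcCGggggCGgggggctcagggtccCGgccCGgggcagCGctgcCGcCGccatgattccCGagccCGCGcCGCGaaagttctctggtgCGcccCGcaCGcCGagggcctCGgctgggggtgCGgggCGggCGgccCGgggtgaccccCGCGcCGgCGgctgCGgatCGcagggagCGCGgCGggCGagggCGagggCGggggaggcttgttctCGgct
MBD2: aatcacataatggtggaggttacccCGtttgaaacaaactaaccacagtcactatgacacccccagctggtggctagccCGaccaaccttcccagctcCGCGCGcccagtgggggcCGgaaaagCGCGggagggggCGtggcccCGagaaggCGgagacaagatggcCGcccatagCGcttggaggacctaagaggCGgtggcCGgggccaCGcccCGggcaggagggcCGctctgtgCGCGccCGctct
The CDK2AP1 window held 40 CpG sites and was 82.8% G and C. Of the 35116 windows of that length before listed starts, 2.16% held at least as many. The windows of the other listed CDK2AP1 starts held 15 and 7 CpG sites, which 42.9% and 58.9% of windows reached. The CHD4 and MBD2 windows held 21 CpG sites each, a number that 30.2% of windows reached. The motif searched was CG, which reads the same on both strands, and 93.9% of all windows held at least 1, with a median of 11. The 14 windows of the 10 genes held between 7 and 40, both ends of that range being CDK2AP1 windows. Methylation was not measured in this series.

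CHD4, the ATPase and the hairpin's target, lies on chromosome 12 (6570082 to 6607379, GRCh38.p14). In U937, probe set 201183_s_at read 8.23, 8.13 and 8.45 on the CHD4 shRNA arrays, against 10.31, 10.38 and 10.71 on the scrambled arrays. All CHD4 shRNA arrays lay below all scrambled arrays. The change of -2.20 (SE 0.14, limma adjusted p = 1.25e-05) left 21.8% of the control signal. In MV4-11 the same probe set read 8.79, 8.85 and 8.39 with CHD4 shRNA, against 10.65, 10.69 and 10.68 with scrambled shRNA. Replicate 3 was the lowest of the CHD4 shRNA arrays, and the scrambled arrays differed by 0.02 (SD) only. This was a change of -2.0 (SE 0.14, limma adjusted p = 2.03e-05), or 25.1% of control.

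The other probe sets of CHD4 gave smaller falls of the same kind. Probe set 201184_s_at read 8.26, 7.94 and 8.33 in U937 with CHD4 shRNA, against 9.91, 9.86 and 10.01 with scrambled shRNA, a change of -1.75 (SE 0.13, limma adjusted p = 2.83e-05). The MV4-11 arrays read 8.51, 8.47 and 8.05, against 10.07, 10.21 and 10.03, a change of -1.76 (SE 0.13, limma adjusted p = 3.49e-05). Its groups did not overlap in either line. Probe set 201182_s_at read 8.20, 7.93 and 8.03 in U937 with CHD4 shRNA, against 10.07, 9.70 and 10.15 with scrambled shRNA, a change of -1.92 (SE 0.15, limma adjusted p = 3.68e-05). The MV4-11 arrays read 8.22, 8.25 and 7.78, against 9.99, 9.91 and 9.65, a change of -1.77 (SE 0.15, limma adjusted p = 6e-05). The CHD4 signal left by the hairpin was therefore between 21.8% and 29.7% of control over the 3 probe sets and both lines. In these bulk samples, cells without the hairpin and less CHD4 RNA in every cell cannot be told apart.

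The fall of CHD4 was of similar size in both lines, and no difference between them was past the threshold. The change in MV4-11 minus the change in U937 was 0.20 (95% interval -0.23 to 0.63) for 201183_s_at, -0.01 (-0.42 to 0.40) for 201184_s_at and 0.15 (-0.32 to 0.62) for 201182_s_at. The limma adjusted p of these differences was 0.949, 0.996 and 0.956. The level of CHD4 in MV4-11 scrambled arrays was likewise within 0.21 of that in U937 scrambled arrays on all 3 probe sets, with none past the threshold.

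**Figure D1:**
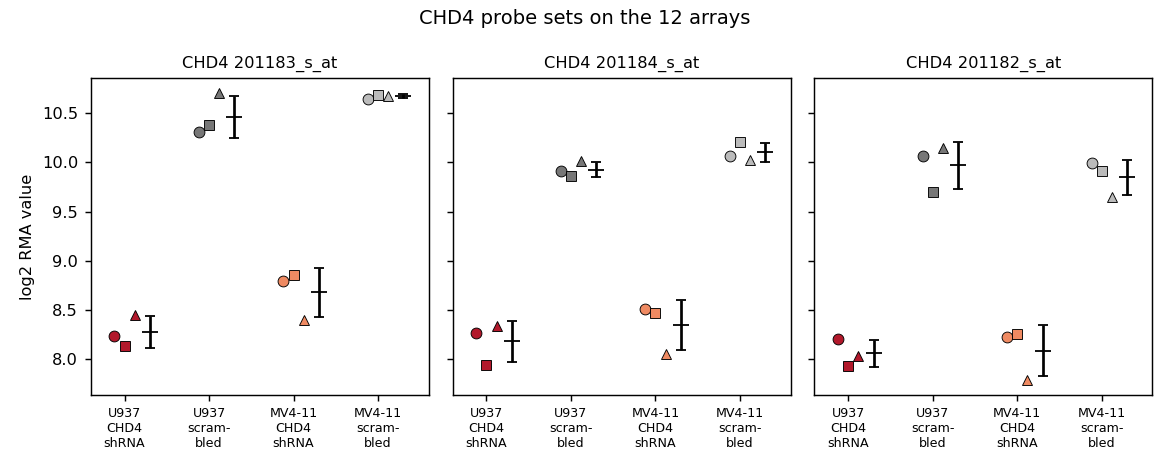
Log2 RMA value (vertical axis) of the 3 CHD4 probe sets on the 12 arrays, by group, with circles, squares and triangles for replicates 1, 2 and 3 and bars for the mean and SD of 3 arrays. On every probe set the CHD4 shRNA arrays of both lines lie at or below 8.85 and the scrambled arrays at or above 9.65.

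CDK2AP1, the small subunit, lies on chromosome 12 (123260976 to 123272240) and had 1 probe set, 201938_at. In MV4-11 it read 10.78, 10.88 and 10.22 with CHD4 shRNA, against 9.59, 9.59 and 9.33 with scrambled shRNA. Replicate 3 was the lowest array of each group, and the groups did not overlap. CDK2AP1 thus rose by 1.12 (SE 0.20, 95% interval 0.70 to 1.55, limma adjusted p = 0.00512), or 2.18-fold. It stayed past the threshold under all 21 alternative settings of the analysis, with changes between 1.00 and 1.33. In U937 it read 10.43, 10.49 and 11.08 with CHD4 shRNA, against 9.92, 9.86 and 10.22 with scrambled shRNA. Here replicate 3 was the highest array of each group, and the groups again did not overlap. The U937 change of 0.67 (SE 0.20, 95% interval 0.24 to 1.09) missed the threshold (limma adjusted p = 0.0765). Over 21 alternatives its adjusted p ran from 0.00613 to 0.248 and was past the threshold in 3. These were a replicate block within each line (0.00613), a replicate block in MV4-11 alone (0.0349) and leaving out MV4-11 CHD4 shRNA replicate 3 (0.0311). Arrays of the same replicate number differed by 1.19, 1.29 and 0.89 in MV4-11 and by 0.51, 0.63 and 0.86 in U937. The mean of both lines was 0.90 (SE 0.14, limma adjusted p = 0.00091). The difference between the lines, 0.46 (SE 0.28, 95% interval -0.14 to 1.05), was not past the threshold (limma adjusted p = 0.944). Between the scrambled groups, the MV4-11 arrays minus the U937 arrays gave -0.50 (SE 0.20) for CDK2AP1 with no overlap, which was not past the threshold (limma adjusted p = 0.187).

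MBD2, the subunit that binds methylated DNA, lies on chromosome 18 (54151606 to 54224669) and had 4 probe sets that did not behave alike. In MV4-11, probe set 202484_s_at read 11.17, 11.02 and 10.79 with CHD4 shRNA, against 10.67, 10.47 and 10.49 with scrambled shRNA. The groups did not overlap, but the difference of 0.45 (SE 0.13, 1.37-fold) narrowly missed the threshold, with a limma adjusted p of 0.052. Same-numbered arrays deviated together in MV4-11, and with replicate number as a block in that line the adjusted p was 0.027. Over 21 alternatives it ran from 0.0163 to 0.21 and was past the threshold in 8. In U937 the probe set read 10.74, 10.76 and 11.17 with CHD4 shRNA, against 10.74, 10.76 and 10.77 with scrambled shRNA. Replicates 1 and 2 had the same values in both U937 groups, and replicate 3 of the CHD4 shRNA group alone stood higher. The U937 difference was 0.13 (SE 0.13, limma adjusted p = 0.691). Averaged over both lines the probe set was past the threshold as higher by 0.29 (SE 0.09, limma adjusted p = 0.0464). That call was lost in 10 of 20 alternatives, 8 of which left out a single array, and the adjusted p reached 0.122; without U937 CHD4 shRNA replicate 3 the value was 0.22 (adjusted p = 0.0951). The other MBD2 probe sets, 214396_s_at, 202485_s_at and 214397_at, averaged 5.18, 4.93 and 3.22 over the 12 arrays and were among the dimmest 25% of probe sets, those with a mean below 5.34. They changed by between -0.06 and 0.10 in U937 and between -0.03 and 0.07 in MV4-11, with none past the threshold.

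**Figure D2:**
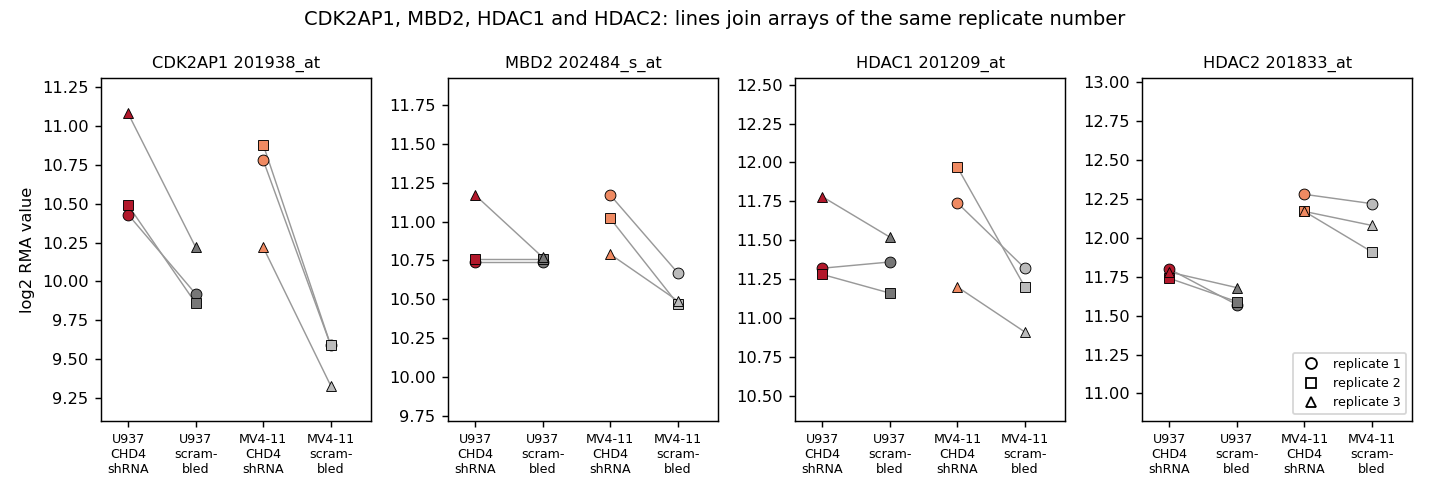
Log2 RMA value (vertical axis) of CDK2AP1, MBD2 202484_s_at, HDAC1 and HDAC2 on each array, by group, with lines joining arrays of the same replicate number. The CDK2AP1 groups do not overlap in either line, the MBD2 groups do not overlap in MV4-11, and MV4-11 replicate 3 is the lowest CHD4 shRNA array for CDK2AP1 (10.22), MBD2 (10.79) and HDAC1 (11.20).

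The histone deacetylases had 1 probe set each. HDAC1, on chromosome 1 (32292083 to 32333626), read 11.74, 11.97 and 11.20 in MV4-11 with CHD4 shRNA, against 11.32, 11.20 and 10.91 with scrambled shRNA. Replicate 3 was low in both groups, and the groups overlapped. The difference of 0.49 (SE 0.19) was not past the threshold (limma adjusted p = 0.148). It was just past it with replicate number as a block in MV4-11 (adjusted p = 0.0498). Without MV4-11 CHD4 shRNA replicate 3 it was 0.71 (adjusted p = 0.0166). Over 21 alternatives the difference ran from 0.33 to 0.71 and its adjusted p from 0.0151 to 0.446. It was past the threshold in 3 of them and not in 18. In U937, HDAC1 read 11.32, 11.28 and 11.78 with CHD4 shRNA, against 11.36, 11.16 and 11.52 with scrambled shRNA, a difference of 0.11 (SE 0.19, limma adjusted p = 0.853). HDAC2, on chromosome 6 (113933028 to 113971148), read 11.80, 11.74 and 11.78 in U937 with CHD4 shRNA, against 11.57, 11.59 and 11.68 with scrambled shRNA. These groups did not overlap, yet the difference was 0.16 (SE 0.09, limma adjusted p = 0.434). In MV4-11 HDAC2 read 12.28, 12.17 and 12.17 with CHD4 shRNA, against 12.22, 11.91 and 12.08 with scrambled shRNA, a difference of 0.14 (SE 0.09, limma adjusted p = 0.439).

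CHD3, the paralogue that can take the place of CHD4 as the ATPase, lies on chromosome 17 (7884796 to 7912755) and had no probe set past the threshold. Probe set 208807_s_at read 8.65, 8.50 and 8.75 in U937 with CHD4 shRNA, against 8.80, 8.82 and 8.78 with scrambled shRNA, a difference of -0.17 (SE 0.09, limma adjusted p = 0.405). MV4-11 arrays read 8.92, 9.04 and 8.86, against 8.82, 8.86 and 8.70, a difference of 0.15 (SE 0.09, limma adjusted p = 0.396). The sign thus differed between the lines. The difference between them, 0.31 (SE 0.13), had an unadjusted p of 0.0332 and a limma adjusted p of 0.944. Probe set 208806_at read 7.67, 7.69 and 7.66 in U937 with CHD4 shRNA, against 7.65, 7.68 and 7.55 with scrambled shRNA. MV4-11 arrays read 7.73, 7.77 and 7.61, against 7.75, 7.83 and 7.52. Its differences were 0.05 in U937 and 0.00 in MV4-11, and no 95% interval of either CHD3 probe set went beyond -0.37 or 0.35. 

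The MTA scaffold proteins had 3 probe sets, none past the threshold. MTA1 lies on chromosome 14 (105419827 to 105470729), and its probe set 202247_s_at read 6.12, 6.31 and 6.48 in U937 with CHD4 shRNA, against 6.65, 6.52 and 6.60 with scrambled shRNA. All 3 CHD4 shRNA arrays lay below the scrambled arrays, by -0.29 on average (SE 0.10, unadjusted p = 0.0134, limma adjusted p = 0.142). In MV4-11 the arrays overlapped, at 6.22, 6.20 and 6.34 against 6.18, 6.17 and 6.26, a difference of 0.05 (SE 0.10, limma adjusted p = 0.833). The second MTA1 probe set, 211783_s_at, showed the other order of lines. It read 8.79, 8.61 and 8.73 in U937 with CHD4 shRNA, against 8.62, 8.50 and 8.93 with scrambled shRNA, a difference of 0.03 (SE 0.11). Its MV4-11 values were 8.34, 8.45 and 8.40, against 8.59, 8.70 and 8.48, a difference of -0.19 (SE 0.11, limma adjusted p = 0.354) without overlap. The 2 probe sets of MTA1 therefore gave no common direction in either line. MTA2, on chromosome 11 (62593214 to 62601865), read 6.09, 5.88 and 6.71 in U937 with CHD4 shRNA, against 6.04, 6.36 and 6.63 with scrambled shRNA. MTA2 in MV4-11 read 6.65, 6.90 and 6.30, against 6.49, 6.50 and 6.32. Its differences of -0.12 and 0.18 (SE 0.21 each) lay within wide spreads between replicates.

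MBD3 and RBBP4 showed small differences. MBD3, the alternative to MBD2, lies on chromosome 19 (1573596 to 1592865), and its probe set 41160_at read 9.26, 9.37 and 9.61 in U937 with CHD4 shRNA, against 9.47, 9.29 and 9.52 with scrambled shRNA. In MV4-11 it read 9.49, 9.81 and 9.13, against 9.47, 9.57 and 9.0, with replicate 3 lowest in both groups. The differences of its 3 probe sets were -0.01, -0.04 and -0.01 in U937 and 0.13, -0.01 and 0.18 in MV4-11 for 41160_at, 202463_s_at and 222183_x_at. On 222183_x_at the MV4-11 groups did not overlap, at 6.03, 6.17 and 6.02 with CHD4 shRNA, against 5.88, 5.91 and 5.90 with scrambled shRNA (limma adjusted p = 0.502). RBBP4, the histone-binding subunit, lies on chromosome 1 (32651208 to 32686211), and its probe set 210371_s_at read 11.83, 11.67 and 12.23 in U937 with CHD4 shRNA, against 11.89, 11.77 and 12.20 with scrambled shRNA. Each same-numbered pair of U937 arrays lay within 0.10 of the other, while replicate 3 stood above the rest in both groups. In MV4-11 it read 12.12, 12.16 and 12.03, against 12.05, 12.16 and 11.92. Its differences were -0.04 (SE 0.15) in U937 and 0.06 (SE 0.15) in MV4-11, and those of 217301_x_at were -0.05 and -0.01 (SE 0.10 each).

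Counted over the 20 probe sets, 0 were past the threshold as higher and 3 as lower in U937, where 1.86% of all probe sets were called higher, 2.65% lower and 4.51% either way. The 3 were those of CHD4. In MV4-11, 1 was higher (CDK2AP1) and 3 were lower (CHD4), beside 3.88%, 3.59% and 7.47% of all probe sets. For the mean of both lines, 2 were higher (CDK2AP1 and MBD2 202484_s_at) and 3 were lower, beside 7.27%, 8.15% and 15.4%. Leaving out CHD4, the partners accounted for 0 calls of 17 in U937, 1 of 17 in MV4-11 and 2 of 17 for the mean, shares near those of all probe sets. With replicate number as a block in MV4-11, 3 of the 17 partner probe sets were past the threshold there, all higher (CDK2AP1, MBD2 202484_s_at and HDAC1), beside 6.89% of all probe sets called higher, 6.22% lower and 13.1% either way in that fit. The median change of the 17 partner probe sets was -0.01 in U937 and 0.07 in MV4-11, beside medians of -0.00 and -0.03 over all probe sets. In each line 16 of the 17 partner probe sets had a 95% interval within 2-fold in both directions, the exception being CDK2AP1. For the difference between the lines, 0 of the 20 were past the threshold in limma and 2 had an unadjusted p under 0.05 (CHD3 208807_s_at and MTA1 202247_s_at). Over all probe sets 0% were called for that difference and 4.41% had an unadjusted p under 0.05. With 3 arrays against 3, an exact permutation test of a single probe set cannot give a p below 0.1.

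**Figure D3:**
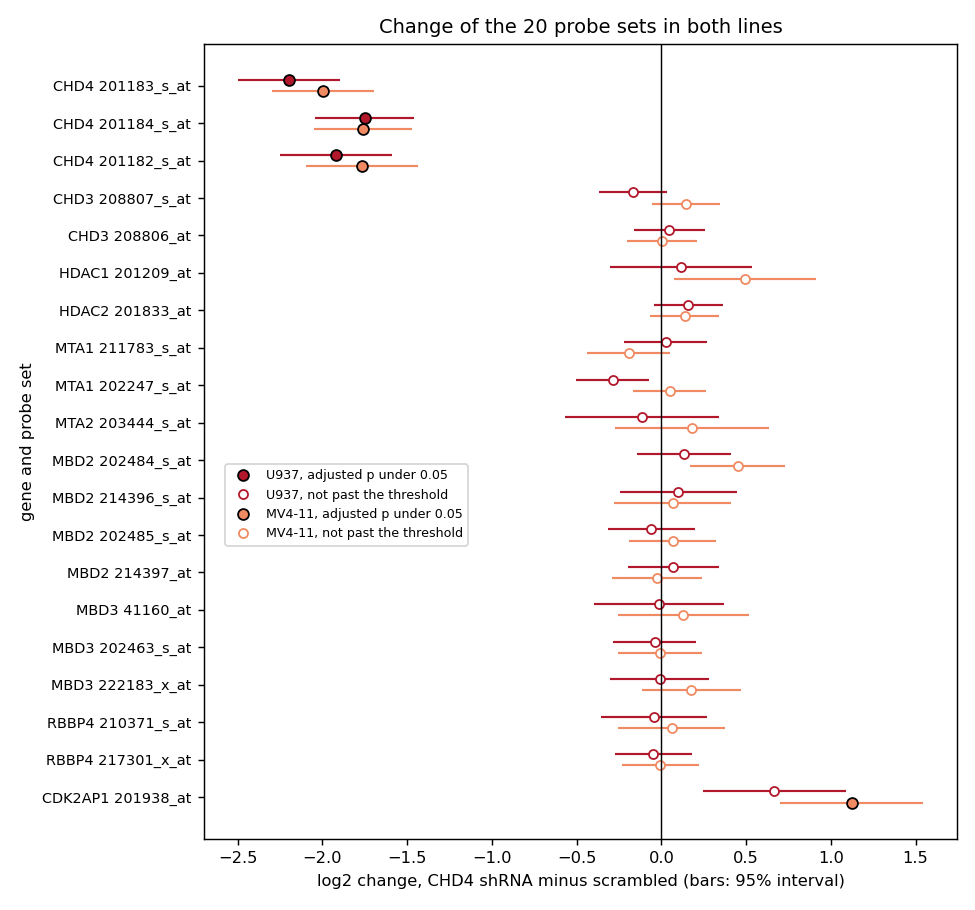
Log2 change with CHD4 shRNA (horizontal axis, points) and its 95% interval (bars) for the 20 probe sets of the 10 genes, U937 above MV4-11 in each pair, with filled points past the threshold. The 3 CHD4 probe sets lie between -2.20 and -1.75, CDK2AP1 lies at 0.67 and 1.12, and the other points lie between -0.29 and 0.49.

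Between the scrambled groups of the 2 lines, 2 of the 20 probe sets were past the threshold. HDAC2 was higher in MV4-11 scrambled arrays (12.22, 11.91 and 12.08) than in U937 scrambled arrays (11.57, 11.59 and 11.68), by 0.46 (SE 0.09, 1.37-fold, limma adjusted p = 0.0153). The groups did not overlap, and the HDAC2 call was lost when MV4-11 scrambled replicate 3 (adjusted p = 0.0571), U937 scrambled replicate 1 (0.0734) or U937 scrambled replicate 2 (0.0641) was left out. MTA1 202247_s_at was lower in MV4-11 scrambled arrays, by -0.39 (SE 0.10, limma adjusted p = 0.0464), and lost its call in 11 of 18 alternatives, 8 of which left out a single array, with adjusted p up to 0.173. The other MTA1 probe set differed by -0.09 between the lines. These 2 of 20 probe sets, 1 higher and 1 lower, stand beside 4.45% of all probe sets that differed between the scrambled groups, 2.37% higher and 2.08% lower in MV4-11. The scrambled groups also serve as the controls of the changes above, so the values of HDAC2 and MTA1 in this comparison and in the shRNA comparisons share arrays.

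Within a group, the same array often stood lowest or highest across these probe sets. In MV4-11 with CHD4 shRNA, replicate 3 was the lowest of its group at 14 of the 20 probe sets, beside 34.0% of all probe sets, and replicate 2 was the highest at 13, beside 33.2%. Scrambled replicate 3 of MV4-11 was the lowest of its group at 12, beside 37.2%. In U937 the direction was the other way: replicate 3 was the highest of its group at 12 probe sets with CHD4 shRNA and at 12 with scrambled shRNA, beside 37.0% and 36.2% of all probe sets. The cause of this order was not tested, and the meaning of the numbers is not stated in the labels.

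The rest of the complex and its relatives were read from 6 lists of 86 genes, of which 63 were measured by 110 probe sets. In U937, 2 of the 110 rose and 0 fell, in MV4-11 4 rose and 0 fell, and for the mean of both lines 12 rose and 1 fell, against either-way shares of 4.51%, 7.47% and 15.4% over all probe sets. The listed shares either way were 1.82%, 3.64% and 11.8%. By direction, the mean had 10.9% higher, beside 7.27% of all probe sets, and 0.91% lower, beside 8.15%. Probe sets of the same gene (IKZF1, BCL11A and MBD4) count separately among the higher ones, and the difference of these shares was not tested. With replicate number as a block in MV4-11, 7 rose and 2 fell there, beside 6.89% and 6.22% of all probe sets. Those that fell were SETDB1 203155_at and BCL6 203140_at (-0.44, SE 0.12, limma adjusted p = 0.0368). BCL6, the gene of a repressor of germinal centre B cells, is named here after its values were seen. Without the block, 203140_at was not past the threshold in MV4-11 (limma adjusted p = 0.115). The second BCL6 probe set, 215990_s_at, differed there by -0.07 (limma adjusted p = 0.834 without the block). The median change over the 110 was 0.02 in U937 and 0.04 in MV4-11. Of the 8 genes listed as remaining NuRD subunits, 5 were measured, and CHD5, the CHD remodeller known mainly from nervous tissue and testis, had the largest change. Its probe set 217250_s_at read 6.35, 6.03 and 5.82 in MV4-11 with CHD4 shRNA, against 4.73, 4.48 and 4.77 with scrambled shRNA, a rise of 1.41 (SE 0.18, limma adjusted p = 0.000954). In U937 it read 5.02, 5.65 and 5.28, against 4.48, 5.0 and 4.80, a difference of 0.56 (SE 0.18, limma adjusted p = 0.114). The change in MV4-11 minus that in U937, 0.85 (SE 0.26), was not past the threshold (limma adjusted p = 0.944). The second CHD5 probe set, 213965_s_at, did not show the rise: its differences were 0.05 in MV4-11 and 0.18 in U937, neither past the threshold. All 6 scrambled values on 217250_s_at lay below 5.34, the mean under which a probe set counted among the dimmest 25%.

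GATAD2A, the subunit that bridges the MBD protein to CHD4, read 10.21, 10.67 and 9.95 in MV4-11 with CHD4 shRNA, against 9.67, 9.82 and 9.52 with scrambled shRNA. The groups did not overlap, and the difference of 0.61 (SE 0.18) had a limma adjusted p of 0.0633, or 0.0203 with replicate number as a block in MV4-11. In U937 it was 0.33 (SE 0.18, adjusted p = 0.4), and the mean of both lines, 0.47 (SE 0.13), was past the threshold (limma adjusted p = 0.0264). That call was lost in 5 of 20 alternatives, when MV4-11 scrambled replicate 1 or 3, U937 CHD4 shRNA replicate 3 or U937 scrambled replicate 1 or 2 was left out (adjusted p = 0.0501 to 0.0681). RBBP7, the paralogue of RBBP4, had differences of 0.06 in U937 and 0.13 in MV4-11. PWWP2A had 0.07 and -0.02, and CDK2AP2, the paralogue of CDK2AP1, had -0.10 and 0.04.

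Among 18 measured recruiters and partners of NuRD (32 probe sets), IKZF1 and BCL11A had probe sets past the threshold. IKZF1 encodes Ikaros, a zinc finger factor of blood cells, and its probe set 220704_at rose by 0.71 (SE 0.15, limma adjusted p = 0.0156) in U937 and by 0.58 (SE 0.15, limma adjusted p = 0.0331) in MV4-11. It read 6.13, 6.12 and 6.30 in U937 with CHD4 shRNA, against 5.61, 5.13 and 5.67 with scrambled shRNA. The MV4-11 values were 6.54, 6.34 and 6.06, against 5.69, 5.76 and 5.76. The U937 call was lost when CHD4 shRNA replicate 2 (adjusted p = 0.0519), CHD4 shRNA replicate 3 (0.0706) or scrambled replicate 2 (0.0547) was left out, and the MV4-11 call when any MV4-11 array but CHD4 shRNA replicate 3 was left out (0.0798 to 0.151). The MV4-11 call was also lost when only the groups compared were fitted (limma adjusted p = 0.06). IKZF1 probe sets 205038_at and 205039_s_at had differences of 0.38 and 0.37 in U937 and of 0.48 and 0.44 in MV4-11, past the threshold for the mean of both lines only (limma adjusted p = 0.0137 and 0.0295). The mean call of 205039_s_at was lost in 7 of 20 alternatives, when MV4-11 CHD4 shRNA replicate 1, MV4-11 scrambled replicate 1 or 3, U937 CHD4 shRNA replicate 3 or any U937 scrambled array was left out (adjusted p = 0.0517 to 0.0742). In MV4-11 both were past it with replicate number as a block (adjusted p = 0.0416 and 0.0417). The fourth, 216901_s_at, had 0.15 and 0.18.

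BCL11A, a zinc finger repressor that binds NuRD in blood cells, rose in MV4-11 on 219497_s_at by 0.49 (SE 0.12, limma adjusted p = 0.0233) and on 219498_s_at by 0.47 (SE 0.11, limma adjusted p = 0.0186). The first read 10.23, 10.35 and 10.19 with CHD4 shRNA, against 9.82, 9.84 and 9.64 with scrambled shRNA. Both calls were lost when CHD4 shRNA replicate 1 or 2 or scrambled replicate 2 or 3 of MV4-11 was left out, with adjusted p up to 0.093. The third BCL11A probe set, 210347_s_at, averaged 10.06 ± 0.43 with CHD4 shRNA and 10.46 ± 0.10 with scrambled shRNA in MV4-11 (SD, n = 3 each), a difference of -0.40 in the other direction, not past the threshold (limma adjusted p = 0.165). ZBTB7A, a repressor of fetal globin genes, was past the threshold on 1 of 4 probe sets (219186_at) for the mean of both lines only, at 0.37 (SE 0.10, limma adjusted p = 0.021), and lost that call without U937 scrambled replicate 1 (0.0532) or 2 (0.0533).

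HDAC9, a deacetylase of another class, rose in U937. It read 7.24, 7.09 and 7.61 with CHD4 shRNA, against 5.81, 6.0 and 5.48 with scrambled shRNA, a change of 1.55 (SE 0.26, limma adjusted p = 0.00567). In MV4-11 it read 6.46, 7.54 and 6.48, against 6.04, 6.65 and 6.31, a difference of 0.49 (SE 0.26, limma adjusted p = 0.303) with overlap. The change in MV4-11 minus that in U937 was -1.06 (SE 0.37, limma adjusted p = 0.944). Past the threshold for the mean of both lines alone were the DNA repair glycosylase MBD4 on 2 of 4 probe sets (0.26 and 0.25, limma adjusted p = 0.0389 and 0.0376), the corepressor RCOR1 (0.41, limma adjusted p = 0.00923) and, as lower, the histone methyltransferase SETDB1 on 203155_at (-0.28, limma adjusted p = 0.0234). The MBD4 calls were lost in 9 of 19 alternatives on 209580_s_at and 10 of 19 on 214047_s_at, with adjusted p up to 0.0925 and 0.0899. On 209580_s_at these were median centring and leaving out any array but MV4-11 CHD4 shRNA replicate 3, MV4-11 scrambled replicate 3, U937 CHD4 shRNA replicate 1 or U937 scrambled replicate 3. On 214047_s_at they were leaving out any array but replicate 3 of either MV4-11 group. The SETDB1 call was lost in 5 of 20 alternatives, without MV4-11 CHD4 shRNA replicate 1, MV4-11 scrambled replicate 2 or 3, U937 CHD4 shRNA replicate 3 or U937 scrambled replicate 1 (adjusted p = 0.0548 to 0.0666). RCOR1 stayed past the threshold in all 20. In U937 alone the RCOR1 difference of 0.48 narrowly missed the threshold (limma adjusted p = 0.0535) and was past it in 8 of 21 alternatives. In MV4-11 alone it was 0.33 (limma adjusted p = 0.148), past the threshold in 1 of 21. With replicate number as a block in MV4-11, SETDB1 was past the threshold in that line, at -0.34 (adjusted p = 0.029). None of the 10 probe sets of the other CHD remodellers passed the threshold in limma in either line or in the mean. Over all probe sets the shares called either way were 4.51% in U937, 7.47% in MV4-11 and 15.4% for the mean. With 10 probe sets, a count of 0 cannot be told from these shares.

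**Figure D4:**
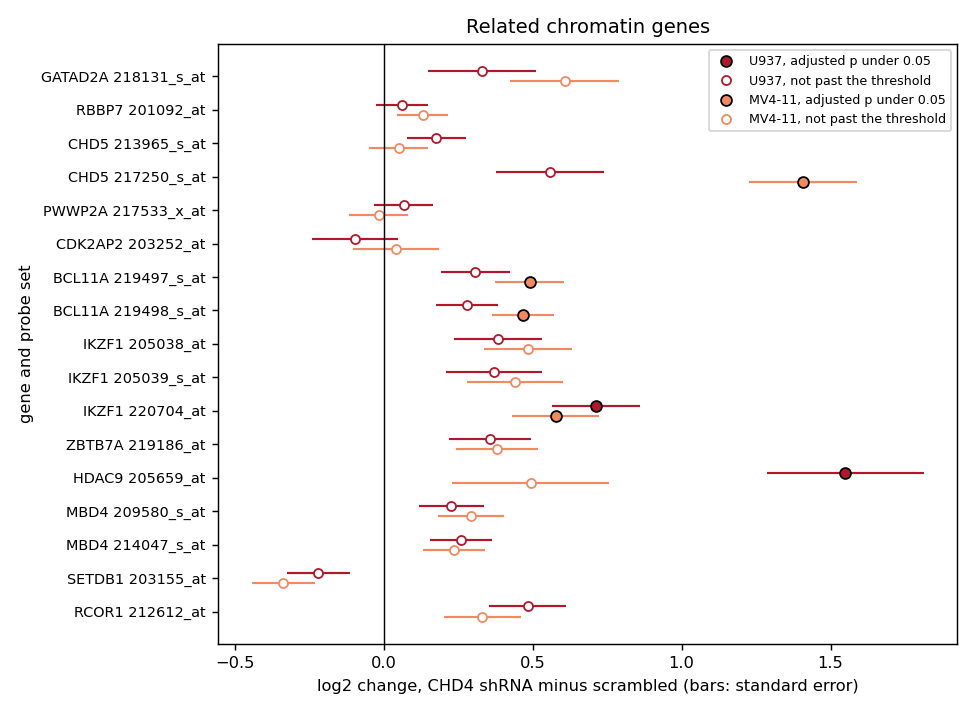
Log2 change with CHD4 shRNA (horizontal axis, points) and its standard error (bars) for the genes listed as remaining NuRD subunits and the other listed genes past the threshold, U937 above MV4-11 in each pair, with filled points past the threshold. CHD5 217250_s_at lies at 0.56 and 1.41 and HDAC9 at 1.55 and 0.49, while SETDB1 lies below 0 in both lines.

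Genes with the array pattern most like that of CHD4 were found by Pearson's r over the 12 arrays among 11953 other genes, each represented by the probe set of highest mean. This r describes the arrays, which share the shRNA grouping, and carries no test. The highest values with CHD4 201183_s_at belonged to GPI (0.98), PPP2R3C (0.97), VDAC1 (0.97), MFHAS1 (0.96) and DCPS (0.96). The lowest belonged to S100A7 (-0.98), MYRF (-0.97), SH3TC2 (-0.96), PADI3 (-0.96) and C8G (-0.96). Within the 6 CHD4 shRNA arrays and the 6 scrambled arrays taken apart, the 5 highest gave 0.69 to 0.92 and 0.32 to 0.79, and the 5 lowest gave -0.90 to -0.33 and -0.79 to -0.20. GPI, the highest over the 12 arrays, had 0.91 and 0.32. For CDK2AP1 the highest values belonged to UPB1 (0.98), RAB8B (0.97), TCTA (0.97), FGR (0.97) and PRKAR2B (0.96), and the lowest to SERINC5, CD47, KCNAB1, TIAM1 and DENND3 (each -0.97). Within the CHD4 shRNA arrays and the scrambled arrays, the 5 highest gave 0.93 to 1.00 and 0.78 to 0.97, and the 5 lowest -0.99 to -0.92 and -0.98 to -0.81.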

How the data were processed

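The authors deposited 1 table of log2 expression values. RMA made them, per the submitters' processing notes; its version, and whether it was run on all arrays jointly, is not given in the sources used here. RMA normalizes by quantiles, so a shift common to most genes is removed, and background compresses the changes of dim probe sets. Of 22277 probe sets, 62 controls were left out; of the rest 19064 had 1 gene symbol, 1043 several, and 2108 were not listed and stayed unnamed. Gene IDs of 19052 were found in the RefSeq gene table.

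One linear model of the 4 groups was fitted to the 12 arrays with limma 3.58.1 in R 4.3.3 (lmFit, eBayes without trend, 8 residual and 4.86 prior degrees of freedom). Benjamini-Hochberg adjustment was over 22215 probe sets, and every adjusted p comes from limma. On simulated data of the U937 comparison, 82% to 100% of changes of 1 or 2 log2 units were recovered, and 7 of 192 calls were false. Smaller changes, such as most of those of the partners, and arrays that deviate together were not simulated. Precision is limited by the number of arrays.

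The members and gene lists were chosen with earlier results of these data known. The text names every member probe set, every measured gene listed as a remaining NuRD subunit, other listed genes past the threshold, and the 5 highest and 5 lowest r. In MV4-11, arrays of the same number deviated together from their group means (r = 0.43, 0.47 and 0.49). The main fit has no replicate block, since the labels do not state what a number means. Its standard errors, intervals and calls in MV4-11 therefore do not use a pairing. A fit with replicate number as a block in MV4-11 is given beside it. The pairing in that fit rests on the titles and on these correlations. Alternatives were a filter on the dimmest 25% of probe sets, 1 probe set per gene, quantile normalization, median centring, eBayes with trend and robust fitting, only the groups compared, replicate blocks, and leaving out each array. Their use for listed genes that are not members, and for r, was added after seeing the data.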

Additional observations from a re-analysis of the deposited data

How the results depend on the processing

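For single probe sets, 151 results gave 2985 values under 21 alternatives. Of these, 2861 kept their direction and their side of the threshold or stayed short of it, 79 were no longer past the threshold, 45 became so, and 0 called values changed sign; 117 sign changes were of values past the threshold in neither fit. CHD4 stayed past the threshold on every probe set that each alternative tested, in both lines. With 1 probe set per gene, the member count was 1 in U937, 3 for the mean of both lines and 1 between the scrambled groups, because fewer probe sets of CHD4 and MTA1 were tested. Between the scrambled groups it was also 1 after quantile normalization, median centring, or eBayes with trend and robust fitting, and 0 to 2 when 1 array was left out. Leaving out 1 array gave 3 to 4 members in U937, 4 to 6 in MV4-11 and 4 to 6 for the mean.

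In MV4-11 the replicate block raised the member count to 6, adding HDAC1 and MBD2, and the count of all probe sets to 2912, against 1659 without it. In U937 the replicate numbers were not taken as pairs, since same-numbered arrays correlated at 0.01, 0.34 and 0.36 and not every array correlated best with its own number. A replicate block within each line gave 4 members and 2151 probe sets in U937, against 3 and 1002, 3700 in MV4-11 and 5217 for the mean, against 3426. The block in MV4-11 alone gave 1626 in U937. The added U937 member was CDK2AP1, and the replicate block changed no other member call in either line. Over all probe sets, 1 probe set per gene gave 761 in U937, 1127 in MV4-11, 2244 for the mean and 655 between scrambled groups, against 988, since fewer were tested; only the groups compared gave 718 in MV4-11. Leaving out 1 array gave 396 to 1210 in U937, 546 to 3143 in MV4-11 (the highest without CHD4 shRNA replicate 3) and 421 to 1280 between scrambled groups; the cause was not tested. For the difference between lines, at most 4 probe sets were called, 0 of them members. The 20 named r were picked as the highest and lowest over these same arrays, so a kept sign is no test of them. Each kept its sign over 14 alternatives, with sizes of 0.948 to 0.995.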
